A study of Mus musculus with 2 samples.

Results

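The vascular endothelial growth factor (VEGF) genes described here are 4 ligand genes (Vegfa, Vegfb, Vegfc and Pgf), 3 receptor kinase genes (Flt1, Kdr and Flt4) and 2 neuropilin genes (Nrp1 and Nrp2). These 9 genes were taken by name from the 32285 genes measured, with no threshold on their values. They were measured by droplet single-cell RNA sequencing in mouse kidney, collected at day 14 after ischaemia and reperfusion of the kidney on one side. The study asks, per its title, how the prolyl hydroxylase PHD3 in endothelium bears on inflammation and repair of the kidney after ischaemia.

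The control library came from mice labelled Cre-. The library called haplodeficient here came from mice labelled Cdh5-CreERT2; Phd3f/+, in which Cre is driven by the promoter of the endothelial cadherin gene Cdh5 and 1 Phd3 allele is floxed. Both groups had the injury and then 4 tamoxifen injections. Both libraries were entered as batch 1 here, but the sample labels name no batch. A batch difference could not be told apart from the group difference. The labels do not say whether the Cre- mice carried the floxed allele, how many animals went into a library, or their age. Each group is a single library, so the groups could not be tested against each other and every difference lacks a replicate check. Parentheses hold 95% intervals, which cover counting error and nothing else.

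VEGF ligands are secreted proteins that act on receptor tyrosine kinases of the endothelial cell surface. VEGF-A acts mainly through KDR (VEGFR2), which drives endothelial growth, survival and permeability. FLT1 (VEGFR1) binds VEGF-A tightly with little kinase output and is also the receptor for VEGF-B and PlGF, the product of Pgf. VEGF-C acts through FLT4 (VEGFR3), the receptor best known from lymphatic vessels, and the neuropilins are co-receptors shared with class 3 semaphorins. In the kidney, podocytes and tubules are known sources of VEGF-A, and the fenestrated vessels of glomeruli and cortex depend on it. Vegfa is a textbook target of the hypoxia-inducible factors (HIF), which prolyl hydroxylases mark for destruction.

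The promoter windows of the genes on which the results turn most are given first, since HIF binds DNA at a short core sequence. Each window is the 250 bases before the RefSeq start on GRCm38.p6, 5′ to 3′ on the gene's strand. They lie at chr17:46032378-46032627 (minus strand) for Vegfa, chr8:54077282-54077531 (plus strand) for Vegfc, chr5:147726012-147726261 (minus strand) for Flt1 and chr5:75978456-75978705 (minus strand) for Kdr. Capitals mark the HIF core GCGTG on either strand, where its reverse complement reads CACGC.
Vegfa: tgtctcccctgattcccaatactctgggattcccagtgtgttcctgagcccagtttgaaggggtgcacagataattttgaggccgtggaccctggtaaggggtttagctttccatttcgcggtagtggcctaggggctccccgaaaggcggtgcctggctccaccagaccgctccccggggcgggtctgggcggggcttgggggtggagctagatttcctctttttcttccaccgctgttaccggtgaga
Vegfc: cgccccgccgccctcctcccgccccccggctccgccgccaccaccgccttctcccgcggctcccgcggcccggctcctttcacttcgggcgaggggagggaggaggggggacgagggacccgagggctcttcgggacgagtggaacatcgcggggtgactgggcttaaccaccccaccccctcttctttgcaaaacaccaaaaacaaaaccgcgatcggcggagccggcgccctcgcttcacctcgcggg
Flt1: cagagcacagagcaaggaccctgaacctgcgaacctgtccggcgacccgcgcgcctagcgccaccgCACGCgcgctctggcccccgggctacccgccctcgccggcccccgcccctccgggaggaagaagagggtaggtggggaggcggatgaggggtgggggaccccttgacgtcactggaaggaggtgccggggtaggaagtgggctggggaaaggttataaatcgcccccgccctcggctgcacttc
Kdr: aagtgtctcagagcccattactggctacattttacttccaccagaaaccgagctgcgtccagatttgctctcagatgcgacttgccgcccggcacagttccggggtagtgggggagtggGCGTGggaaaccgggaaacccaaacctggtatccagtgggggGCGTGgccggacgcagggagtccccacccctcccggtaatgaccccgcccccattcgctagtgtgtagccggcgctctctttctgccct
The core GCGTG occurred 2 times in the Kdr window and 1 time in the Flt1 window, on the strands shown, and it did not occur in the windows of Vegfa and Vegfc. All 9 genes matched the promoter table, and 6 of them held GCGTG (Vegfb, Pgf, Flt1, Kdr, Nrp1 and Nrp2), against 28.3% of 27025 promoter windows of the same length. The G+C content of the windows of the 9 genes ranged from 59.2% (Vegfa) to 76.4% (Vegfb), above the median of 52% over all windows. Neither the other HIF core ACGTG (in 16.5% of all windows) nor the ETS factor core CGGAAG (in 13.8%), both searched on both strands, occurred in any of the 9. A match is a description of letters and not a binding site, and sequence outside these windows was not searched.

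The libraries held 8737 control and 9222 haplodeficient cells, and 28 cell barcodes occurred in both. Median depth was 8762 and 5471.5 UMIs (unique molecular identifiers, which count captured RNA molecules) per cell, and the median mitochondrial share was 10.2% and 2.69%. Cell classes were rebuilt by clustering without the 9 genes and were named from marker genes. 18 classes or unnamed clusters had at least 50 cells in each library and were compared, and every order of classes below is among these. A smaller cluster with endothelial and pericyte genes together (41 and 69 cells) was left out of them, and it had 948 and 814 CPM of Flt1, 135 and 206 CPM of Kdr and 23.0 and 31.0 CPM of Pgf. In endothelial-like cells (363 control and 794 haplodeficient) Cdh5 was at 698 and 708 CPM (the depth-scaled count, from UMIs summed over the cells of a class). The 15 endothelial markers of the list summed to 9512 and 9247 CPM there, against at most 760 CPM in any other class compared. Proximal tubule-like cells made up 34.1% of control and 3.18% of haplodeficient cells. No podocyte or lymphatic cluster was found, and the lymphatic marker Lyve1 had 3 and 2 UMIs in endothelial-like cells. Egln3, the gene encoding PHD3, was at 24.2 CPM (18.4 to 31.3) in control and 21.0 CPM (17.3 to 25.3) in haplodeficient endothelial-like cells, with overlapping intervals. Whether the counted 3′ end lies in the deleted part is not given in the sources used here.

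**Figure D1:**
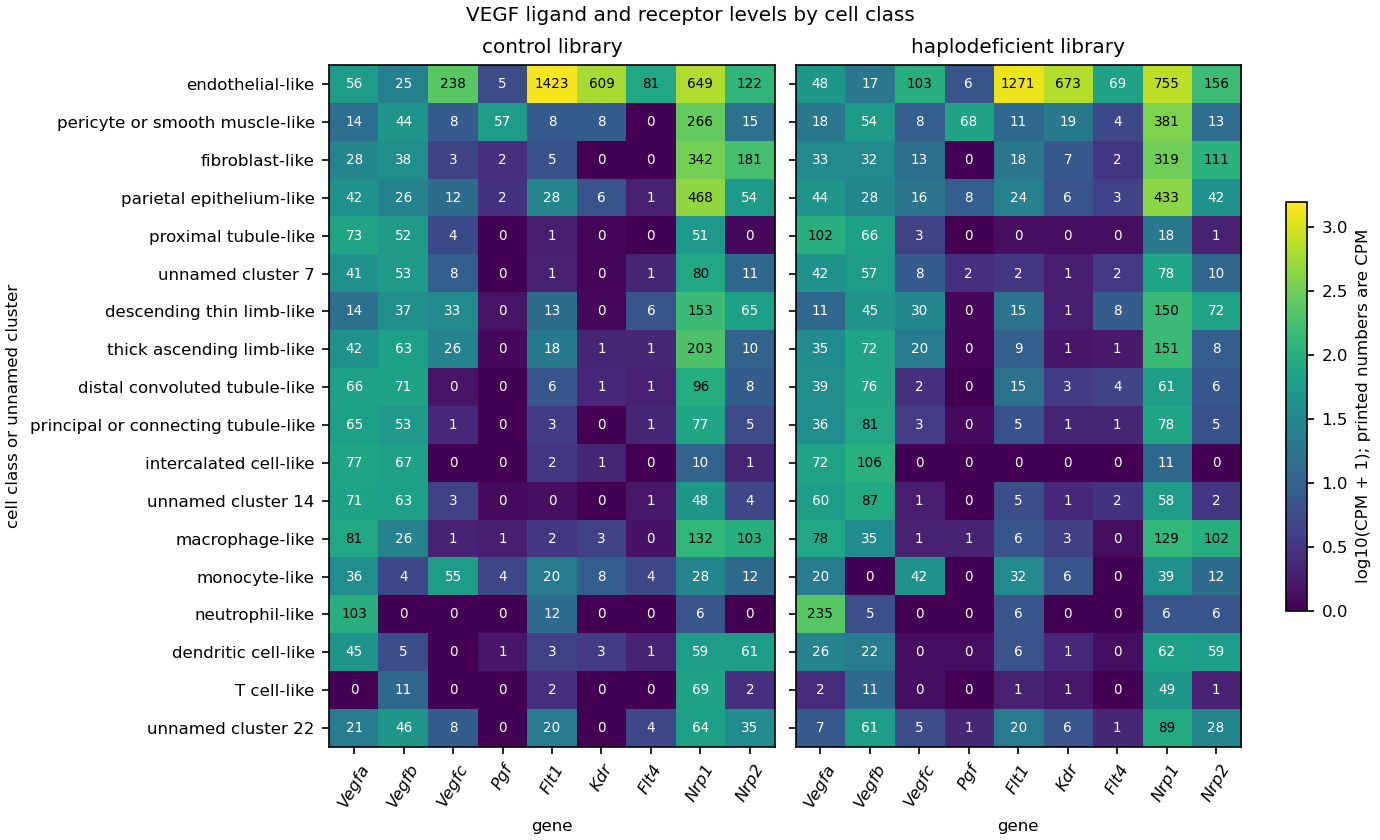
Levels of the 9 genes in 18 classes and unnamed clusters (rows) in the control (left) and haplodeficient (right) library, as CPM printed in each cell and coloured on a log10(CPM + 1) scale. Flt1 and Kdr stand out in the endothelial-like row at 1423 and 609 CPM in control and 1271 and 673 CPM in haplodeficient. The Vegfa column is highest in neutrophil-like cells, in control with an interval that overlaps those of other classes.

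Across 162 pairs of gene and class, 40 were eligible for a ratio, with 50 CPM or more as the mean of both libraries and 30 or more UMIs in all. The size rule asked for an absolute log2 ratio of at least 1, after adding 5 CPM to each value, with Poisson intervals that did not overlap. 2 pairs were past it: Vegfc was lower in haplodeficient endothelial-like cells and Vegfa was higher in haplodeficient neutrophil-like cells. Among all eligible genes the rule was passed by 0.852% in endothelial-like cells (32 of 3757) and by 4.83% in neutrophil-like cells. In the other classes with an eligible pair none of the 9 genes was past it. There the share of all eligible genes was 0.789% in unnamed cluster 7, 0.912% in pericyte or smooth muscle, 0.981% in parietal epithelium, 0.987% in macrophage, 1.12% in unnamed cluster 14, 1.2% in thick ascending limb, 1.64% in distal convoluted tubule, 1.66% in descending thin limb and 1.91% in dendritic cells. It was 2.33% in proximal tubule, 2.34% in T cells, 2.48% in intercalated cells, 2.55% in principal or connecting tubule, 2.79% in fibroblasts and 8.69% in unnamed cluster 22, whose cells were shallow. In monocyte-like cells, with no eligible pair, it was 3.44%. Levels are compared between classes and libraries but not between genes, since counts of 3′ ends depend on the gene.

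Vegfa (ENSMUSG00000023951, minus strand of chromosome 17, 46016993 to 46032369 on GRCm38), the main ligand of KDR, was spread over many classes. It was highest in neutrophil-like cells, at 103 CPM (59.99 to 165; 17 UMIs) in control and 235 CPM (208 to 264; 278 UMIs) in haplodeficient. These intervals did not overlap, and the ratio was 2.28 (1.40 to 3.97; log2 ratio 1.15). Over 12 alternatives the log2 ratio ranged from 0.64 to 1.24. It was 0.64 after thinning cells to 1000 UMIs and 0.99 without doublet removal, both under the size rule. Thinning leaves out cells with fewer than 1000 UMIs, which left 96 control and 571 haplodeficient cells with 13 and 122 Vegfa UMIs. The control value before thinning rests on 103 cells, against 617 haplodeficient cells. Its interval covers the control levels of macrophage-like (81.0 CPM) and intercalated cell-like (77.1 CPM) cells, so in control the top rank is not separate. Of 15 genes known to respond to tissue dissociation, 12 were eligible in these cells, 6 higher and 6 lower, and their summed level was 14314 and 15168 CPM. Unthinned, 10.7% of control and 20.7% of haplodeficient neutrophil-like cells had a Vegfa UMI. After thinning the shares were 9.38% (4.38 to 17.1) and 14.5% (11.7 to 17.7), and these overlap. T cells served as a class that should lack Vegfa: there the thinned shares were 0% (0 of 175 cells, an interval up to 2.09%) and 0.196%, at median depths of 2709 and 2584.5 UMIs against 1559 and 1774 in neutrophil-like cells.

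Along the nephron the Vegfa difference did not have one direction. Proximal tubule-like cells had 72.8 CPM in control and 102 CPM in haplodeficient, a ratio of 1.40 (1.24 to 1.58), whereas distal convoluted tubule-like cells had 66.0 and 38.6 CPM, a ratio of 0.585 (0.492 to 0.692). Principal or connecting tubule-like cells had 64.7 and 36.4 CPM, a ratio of 0.563 (0.486 to 0.652). The proximal value turned to a log2 ratio of -0.24 with the libraries clustered apart, and it was 0.14 with a mitochondrial limit of 25%, against 0.46 in the main analysis. The mitochondrial share of proximal tubule-like cells was 23.1% in control and 7.74% in haplodeficient, and the median log2 ratio over all eligible genes of this class was 0.21. The dissociation stress genes also differed there, with 9 of 12 eligible higher and 3 lower, 6 of them past the size rule, a median of 0.93 and summed levels of 4453 and 9184 CPM. The part of the stress genes in the Vegfa value was not tested, nor was that of the mitochondrial share beyond these alternatives.

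Within these classes Vegfa differed by cluster. In the S1 and S2 gene-led proximal cluster (Slc5a12, Slc5a2) it was 71.8 and 102 CPM, and in the Slc7a13-led cluster 98.7 and 151 CPM, with ratios of 1.42 (1.21 to 1.66) and 1.53 (1.25 to 1.86). The remaining proximal clusters had ratio intervals that included 1. A Spp2 and Dnase1 cluster (806 control and 93 haplodeficient cells) had 28.2 and 18.6 CPM (0.660, 0.237 to 1.49). A Kap and Acsm3 cluster (351 and 7 cells) had 22.2 and 11.6 CPM (0.520, 0.0130 to 3.01). A small cluster (66 and 8 cells) had 51.6 and 94.2 CPM (1.83, 0.743 to 3.92). The proximal class value includes this makeup. The principal or connecting class joined a Fxyd4 and Aqp4 cluster at 37.8 and 28.2 CPM (0.746, 0.597 to 0.933) and a Calb1 and Trpv5 cluster at 88.7 and 78.2 CPM (0.882, 0.701 to 1.10). The first held 335 control and 611 haplodeficient cells and the second 321 and 103, so the class value includes that shift in makeup. Thick ascending limb-like cells had 42.4 and 35.1 CPM as a class. In their Egf- and Umod-led cluster Vegfa was 65.6 CPM in control and 25.8 CPM in haplodeficient, a ratio of 0.393 (0.3055 to 0.4998). In their Cldn16 and Enox1 cluster it was 29.2 and 36.8 CPM, a ratio of 1.26 (1.10 to 1.45), in the opposite direction.

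Macrophage-like cells had 81.0 and 78.5 CPM of Vegfa, with a ratio interval that included 1 (0.855 to 1.10). The macrophage cluster led by Gpnmb and by Trem2, a lipid receptor gene, had 141 and 116 CPM (0.826, 0.716 to 0.954), and the Mrc1 and Ccl8 cluster had 37.2 and 27.0 CPM (0.726, 0.548 to 0.963). Each cluster was lower in haplodeficient, while the cluster with the higher level held 171 of 740 control and 412 of 1143 haplodeficient macrophage-like cells. Endothelial-like cells themselves had 55.5 and 48.3 CPM (0.871, 0.703 to 1.08), and the number of Vegfa UMIs that free RNA would give was 7.999% and 7.19% of those seen. The subcluster that carries podocyte genes, 3.58% and 3.53% of these cells, held 31.6% and 41.6% of the endothelial Vegfa UMIs, at 196 and 161 CPM. Without it the log2 ratio was -0.33, against -0.18. Arterial-like cells had 105 and 124 CPM, with overlapping intervals and a log2 ratio of 0.23. After thinning this was -0.66, from only 6 control and 5 haplodeficient Vegfa UMIs. Capillary-like cells had 6.99 and 5.54 CPM. T cells had 0 and 1.57 CPM. Free RNA, profiled in barcodes of 1 to 100 UMIs, held Vegfa at 79.2 CPM in control and 52.7 CPM in haplodeficient. The 3 genes whose pattern over 36 class-by-library values (18 classes in 2 libraries, with shared depth and preparation within a library) was most like Vegfa were Wsb2 (r = 0.80), Dmxl2 (r = 0.78) and Srxn1 (r = 0.75).

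**Figure D2:**
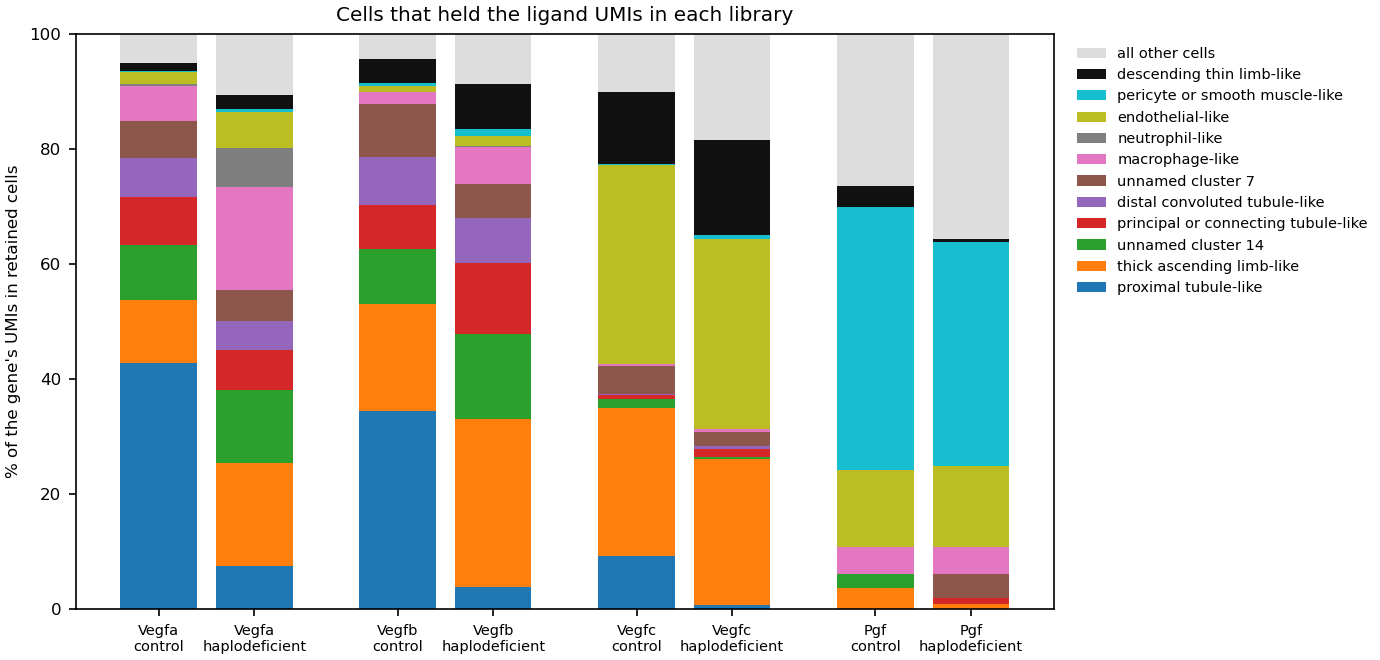
Share of the UMIs of each ligand gene (vertical axis, %) held by each cell class in the control and haplodeficient library. Proximal tubule-like cells (bottom, blue) held 42.8% of Vegfa UMIs in control and 7.54% in haplodeficient, and endothelial-like cells (olive) held 34.6% and 33.0% of Vegfc UMIs.

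The cells that held the Vegfa UMIs differed between libraries. Proximal tubule-like cells held 42.8% (41.6 to 44.0) of 6235 control Vegfa UMIs and 7.54% (6.75 to 8.39) of 4087 haplodeficient ones. Thick ascending limb-like cells held 10.9% and 17.9%, macrophage-like cells 6.13% and 17.9%, and neutrophil-like cells 0.273% and 6.80%. These shares follow the number of cells recovered as well as their level.

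Vegfb (ENSMUSG00000024962, chromosome 19), a ligand of FLT1, had its highest levels in tubule classes. Distal convoluted tubule-like cells, highest in control, had 70.8 CPM in control and 75.6 CPM in haplodeficient, with a ratio interval that included 1 (1.07, 0.931 to 1.22). Intercalated cell-like cells had 67.5 CPM in control and 106 CPM in haplodeficient, a ratio of 1.58 (1.21 to 2.05). Principal or connecting tubule-like cells had 52.7 and 80.6 CPM, a ratio of 1.53 (1.35 to 1.73), and the 2 clusters of this class were both higher in haplodeficient (ratios 1.48 and 1.86). Unnamed cluster 14, led by intercalated cell genes with principal cell genes beside them, had 63.0 and 87.3 CPM (1.39, 1.24 to 1.55). Of 8 eligible classes no class was past the size rule. Proximal tubule-like cells had 51.8 and 65.6 CPM, a log2 ratio of 0.31 where the median over all eligible genes was 0.21. Thick ascending limb-like cells, at 63.4 and 72.1 CPM (log2 ratio 0.17, against a median of 0.073 over all eligible genes), turned direction under 5 alternatives. Their Egf- and Umod-led cluster had 81.0 and 73.5 CPM (0.907, 0.772 to 1.06). Their Cldn16 and Enox1 cluster had 53.4 and 71.9 CPM (1.35, 1.22 to 1.49). In endothelial-like cells Vegfb was low, at 24.6 and 17.4 CPM, and it was not detected in control neutrophil-like cells (0 UMIs, an interval up to 22.3 CPM). The patterns most like it over the same 36 values were those of Idh2 (r = 0.92), Coq7 (r = 0.91) and Ndufa12 (r = 0.91).

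Vegfc (ENSMUSG00000031520, chromosome 8, 54077606 to 54187096), the ligand of FLT4, was highest, among the 18 classes and clusters compared, in endothelial-like cells and lower there in the haplodeficient library. The control level was 238 CPM (219 to 259; 571 UMIs) and the haplodeficient level 103 CPM (94.1 to 112; 541 UMIs). The intervals did not overlap, and the ratio was 0.430 (0.382 to 0.485; log2 ratio -1.18). Monocyte-like cells came next, at 55.4 and 42.1 CPM, and then descending thin limb-like cells at 33.4 and 30.4 CPM. The endothelial-like level was separate from the next, and the intervals of these other classes overlapped. The small cluster with endothelial and pericyte genes, which is not in this order, had 175 CPM (146 to 208) and 103 CPM (86.9 to 121), and in haplodeficient this overlaps the endothelial-like level. A Vegfc UMI was seen in 27.8% and 21.0% of endothelial-like cells, and after thinning in 11.3% (8.13 to 15.2) and 7.24% (5.50 to 9.32). T cells had it in 0% and 0.0963% of cells, at median depths of 2709 and 2584.5 UMIs against 3979 and 3905.5 in endothelial-like cells. With the same weight for each endothelial subcluster in both libraries the log2 ratio was -0.51, and with cells thinned to 1000 UMIs it was -0.79, so neither was past the size rule.

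The endothelial subtypes show where Vegfc lay. Arterial-like cells, which line the larger resistance vessels, had 825 CPM in control and 692 CPM in haplodeficient, a ratio of 0.839 (0.726 to 0.969). The size rule, which 2.2% of eligible genes passed in that subtype, was not met. Descending vasa recta-like cells, which line the vessels running into the medulla, had 180 and 70.5 CPM, a ratio of 0.390 (0.287 to 0.527) that was past the size rule, as were 2.33% of eligible genes in that subtype. Its log2 ratio of -1.30 ranged from -1.34 to -1.12 over 6 alternatives. In the same cells all 15 dissociation stress genes were lower in haplodeficient, 4 of them past the size rule, with a median log2 ratio of -0.94 and summed levels of 20147 and 12540 CPM. Their part in the Vegfc, Flt1 and Kdr values of this subtype was not tested. Glomerular-like cells had 0 UMIs in control (an interval up to 15.5 CPM) and 13.04 CPM in haplodeficient. Unnamed subcluster 2, led by Calca with the tubule genes Kap and Umod, had 121 and 48.3 CPM. It was past the rule, as were 2.13% of its eligible genes. After thinning its log2 ratio turned to 0.23, from only 7 control and 18 haplodeficient Vegfc UMIs. Arterial-like cells held 68.5% and 68.9% of endothelial Vegfc UMIs, while they made up 19.8% of endothelial UMIs in control and 10.2% in haplodeficient. The genes most like Vegfc over the 36 values were Fam43a (r = 0.87), Flt1 (r = 0.81) and Nxpe4 (r = 0.80).

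Pgf (ENSMUSG00000004791, chromosome 12), which encodes the FLT1 ligand PlGF, had its highest level in pericyte or smooth muscle-like cells. They had 57.3 CPM (40.6 to 78.7; 38 UMIs) in control and 67.9 CPM (54.1 to 84.1; 83 UMIs) in haplodeficient. These intervals overlap, and the ratio was 1.18 (0.797 to 1.79). In every other class compared Pgf was at or below 8.15 CPM in both libraries. Pericyte or smooth muscle-like cells held 45.8% of Pgf UMIs in control and 39.0% in haplodeficient. The small cluster with endothelial and pericyte genes held 20.5% and 20.2%, and endothelial-like cells 13.3% and 14.1%. Parietal epithelium-like cells held 2.41% and 14.6% (2 and 31 UMIs). In those cells the 13 pericyte or smooth muscle markers summed to 2724 and 6466 CPM, and their part in this Pgf difference was not tested. Hey2 (r = 0.95), Gm13861 (r = 0.95) and P2rx1 (r = 0.94) had the most similar patterns.

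**Figure D3:**
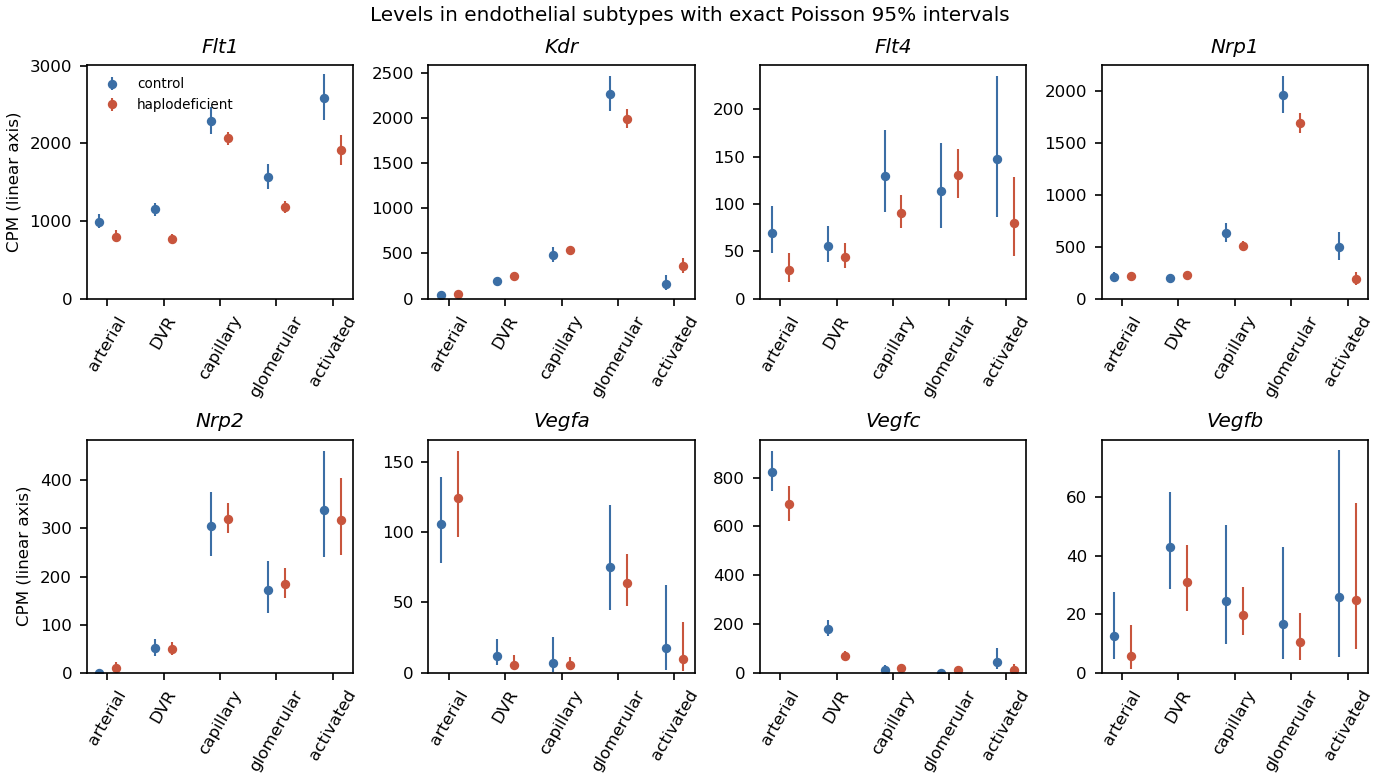
Level in CPM (vertical axes, linear, from 0) of 8 of the genes in 5 endothelial subtypes of the control (blue) and haplodeficient (red) library. Bars are exact Poisson 95% intervals and DVR is descending vasa recta. Kdr and Nrp1 peak in glomerular-like cells (2263 and 1992 CPM, 1961 and 1690 CPM) and Vegfc in arterial-like cells.

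Flt1 (ENSMUSG00000029648, chromosome 5, 147561604 to 147726011), the high-affinity receptor for VEGF-A, was an endothelial gene in both libraries. Its level was 1423 CPM (1375 to 1471) in control and 1271 CPM (1241 to 1302) in haplodeficient endothelial-like cells. No other class compared was above 31.9 CPM, and endothelial-like cells held 73.1% and 77.9% of all Flt1 UMIs. Flt1 UMIs were seen in 87.6% and 87.3% of endothelial-like cells (65.2% and 64.6% after thinning), against 0.559% and 0.193% of T cells.

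The Flt1 ratio was below 1 in endothelial-like cells (0.894, 0.857 to 0.931) and in the 4 endothelial groups large enough to compare. Descending vasa recta-like cells had 1150 CPM in control and 773 CPM in haplodeficient, a ratio of 0.672 (0.608 to 0.743). Arterial-like cells had 991 and 799 CPM, a ratio of 0.806 (0.706 to 0.921) whose log2 value turned to 0.046 after thinning. Capillary-like cells had 2289 and 2065 CPM (0.902, 0.828 to 0.984), in a subtype where 2.37% of eligible genes were past the size rule and where 12 of 15 dissociation stress genes were higher and 3 lower (median 0.46, summed levels 11464 and 15916 CPM). Activated-like cells, marked by Selp and Sele, had 2589 CPM in 19 control cells and 1910 CPM in 37 haplodeficient cells, too few cells for a ratio. None of these Flt1 ratios was past it. The genes most like Flt1 were Kdr (r = 0.92), Nos3 (r = 0.92) and Shank3 (r = 0.91).

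Kdr (ENSMUSG00000062960, chromosome 5, 75932827 to 75978458), the main signalling receptor for VEGF-A, was at 609 CPM (578 to 641) in control and 673 CPM (651 to 696) in haplodeficient endothelial-like cells. The intervals did not overlap and the ratio was 1.11 (1.04 to 1.18). The direction depended on the makeup of the class: with equal subcluster weights the log2 ratio was -0.089, and without the subcluster that carries podocyte genes it was 0.46, against 0.14. That subcluster had 13 control and 28 haplodeficient cells, with Kdr at 2506 and 1283 CPM. Among the other classes compared Kdr reached 18.8 CPM at most, in haplodeficient pericyte or smooth muscle-like cells.

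Kdr differed among vessel types more than between libraries. Glomerular-like cells had 2263 CPM (2076 to 2462) in control and 1992 CPM (1894 to 2095) in haplodeficient, and arterial-like cells 44.3 and 46.4 CPM. Capillary-like cells had 486 and 534 CPM and were separate from both in each library. Descending vasa recta-like cells had 196 and 250 CPM (1.28, 1.03 to 1.59). After thinning that log2 ratio of 0.34 was 1.70, from only 7 control and 42 haplodeficient Kdr UMIs. Glomerular-like cells were 7.71% of control and 9.82% of haplodeficient endothelial-like cells and held 37.0% and 43.0% of their Kdr UMIs. A Kdr UMI was seen in 54.0% and 63.9% of endothelial-like cells (22.3% and 32.0% after thinning) and in 0% and 0.193% of T cells. Kdr and Flt1 UMIs occurred in the same thinned cell in 16.4% of 336 control and 22.9% of 760 haplodeficient endothelial-like cells. The product of their separate shares was 14.5% and 20.7%. For Kdr and Nrp1 the joint share was 13.1% and 15.1%, and the products were 7.37% and 11.1%. In capillary-like and glomerular-like cells the joint share and the product lay closer together, at 14.3% and 12.6% in control capillary-like cells, 15.2% and 14.5% in haplodeficient capillary-like cells, and 56.8% and 58.3% in haplodeficient glomerular-like cells. The patterns most like Kdr were those of Sox17 (r = 0.97), Mmrn2 (r = 0.97) and Crispld1 (r = 0.97).

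Flt4 (ENSMUSG00000020357, chromosome 11), the VEGF-C receptor, was also highest in endothelial-like cells. Its level there was 81.4 CPM (70.4 to 93.6) in control and 68.6 CPM (61.7 to 76.1) in haplodeficient. These intervals overlap and the ratio was 0.843 (0.706 to 1.009). After thinning the log2 ratio was -0.84, against -0.23. Endothelial-like cells held 60.6% and 62.4% of all Flt4 UMIs. Descending thin limb-like cells held 10.9% and 12.1% (35 and 70 UMIs), at 5.70 and 7.83 CPM. Glomerular-like (113 and 130 CPM) and capillary-like (129 and 90.9 CPM) cells had overlapping levels. Arterial-like cells, with the highest Vegfc level, had 69.6 CPM of Flt4 (33 UMIs) in control and 29.7 CPM (16 UMIs) in haplodeficient, a ratio of 0.426 (0.219 to 0.797) in a pair under the minimum for the size rule. Egfl8 (r = 0.94), Ushbp1 (r = 0.94) and Nova2 (r = 0.93) were most like Flt4.

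Nrp1 (ENSMUSG00000025810, chromosome 8, 128358604 to 128503363), the VEGF-A and semaphorin co-receptor, had the widest spread of the receptors, with 14 eligible classes. Endothelial-like cells were highest, at 649 CPM (617 to 682) in control and 755 CPM (732 to 779) in haplodeficient, a ratio of 1.16 (1.10 to 1.24). The log2 ratio of 0.22 turned to -0.22 with equal subcluster weights. Within subtypes, capillary-like cells were lower in haplodeficient, at 632 and 510.0 CPM (0.806, 0.683 to 0.956). Arterial-like cells had 211 and 217 CPM, with a log2 ratio of 0.040. After thinning this was 1.19, from only 6 control and 19 haplodeficient Nrp1 UMIs. Glomerular-like cells had 1961 and 1690 CPM.

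Outside endothelium, parietal epithelium-like cells, which line the glomerular capsule, had 468 and 433 CPM of Nrp1 (0.926, 0.836 to 1.03). The sign of that ratio varied over 12 alternatives, with log2 ratios from -0.52 after thinning to 1.41 with the libraries clustered apart. Their 10 parietal markers summed to 5261 and 4202 CPM, with none at 0. The 13 pericyte or smooth muscle markers summed to 2724 and 6466 CPM in the same cells (3 and 2 of them at 0), and the 12 podocyte markers to 1264 and 1930 CPM (none at 0). The part of these other markers in the Nrp1 values was not tested. Pericyte or smooth muscle-like cells had 266 and 381 CPM, a ratio of 1.43 (1.20 to 1.72). Thick ascending limb-like cells had 203 and 151 CPM, a ratio of 0.742 (0.706 to 0.779), and their 2 clusters were alike in this (0.705 and 0.738). Distal convoluted tubule-like cells had 96.1 and 60.5 CPM (0.630, 0.548 to 0.722). Proximal tubule-like cells had 51.0 CPM (1870 UMIs) in control and 17.9 CPM (54 UMIs) in haplodeficient, a ratio of 0.351 (0.263 to 0.460; log2 ratio -1.29). Their mean was under the minimum for the size rule, and the ratios in the Slc5a12 and Slc7a13 clusters were 0.380 and 0.347. The remaining proximal clusters had few haplodeficient Nrp1 UMIs, and their ratio intervals included 1. The stress genes and the mitochondrial share of this class differed as given for Vegfa, and their part was not tested. Free RNA held Nrp1 at 57.0 CPM in control and 108 CPM in haplodeficient, which is above the level of several tubule classes. The Nrp1 UMIs that free RNA would give were 3.53% and 18.5% of those seen in proximal tubule-like cells. They were 4.37% and 10.2% in distal convoluted tubule-like, 1.82% and 3.69% in thick ascending limb-like and 19.4% and 26.2% in intercalated cell-like cells. Ehd2 (r = 0.83) and Ttc28 (r = 0.83) were among the 3 genes most like Nrp1.

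**Figure D4:**
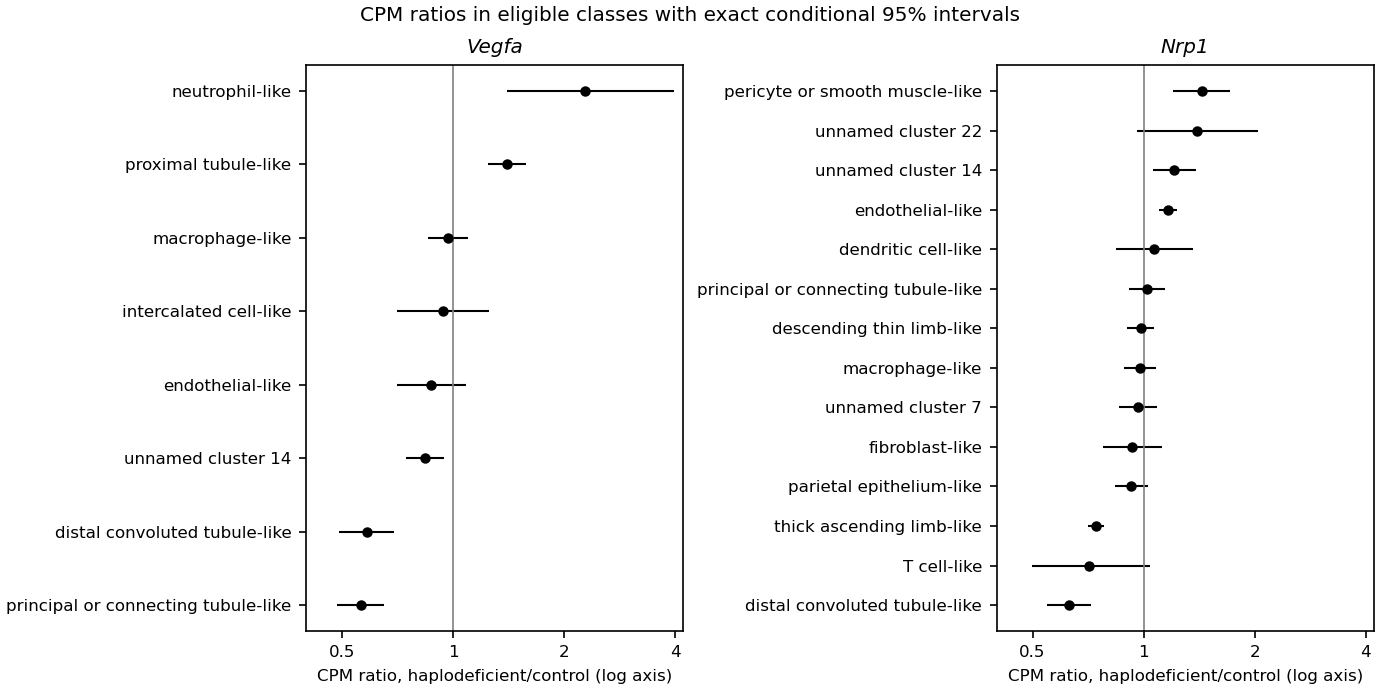
CPM ratio of haplodeficient over control (horizontal axes, log scale) for Vegfa and Nrp1 in each eligible class, with exact conditional 95% intervals and a line at 1. For Vegfa the neutrophil-like (2.28) and proximal tubule-like (1.40) intervals lie above 1 and the distal convoluted (0.585) and principal or connecting (0.563) ones below.

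Nrp2 (ENSMUSG00000025969, chromosome 1), the co-receptor associated with VEGF-C, had its highest levels in fibroblast-like, endothelial-like and macrophage-like cells. Descending thin limb-like cells had 64.9 CPM in control and 72.4 CPM in haplodeficient (1.12, 0.984 to 1.27). They held 20.7% and 19.2% of all Nrp2 UMIs, against 15.2% and 24.4% in endothelial-like cells. Fibroblast-like cells had 181 CPM in control (104 UMIs) and 111 CPM in haplodeficient (101 UMIs), a ratio of 0.614 (0.462 to 0.815). Macrophage-like cells had 103 and 102 CPM (0.996, 0.892 to 1.11). Their Mrc1 and Ccl8 cluster had 79.2 and 60.1 CPM (0.760, 0.629 to 0.918). The Gpnmb and Trem2 cluster had 135 and 133 CPM (0.988, 0.858 to 1.14). The first held 569 control and 731 haplodeficient cells and the second 171 and 412, so the class value includes that shift in makeup. Endothelial-like cells had 122 and 156 CPM, a ratio of 1.27 (1.11 to 1.46), whose log2 value of 0.34 turned to -0.034 with equal subcluster weights. Capillary-like (304 and 320 CPM) and activated-like (338 and 318 CPM) cells were highest among vessels, and arterial-like cells had 0 control and 5 haplodeficient UMIs. Rrbp1 (r = 0.87), Igf1 (r = 0.86) and Cmtm3 (r = 0.85) were most like Nrp2.

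Over all retained cells the receptors read differently from the class values. Flt1 was at 43.6 CPM in control and 92.0 CPM in haplodeficient, Kdr at 15.2 and 42.7 CPM and Nrp1 at 112 and 160 CPM. Endothelial-like cells were 4.15% of control and 8.61% of haplodeficient cells. They held 73.1% and 77.9% of Flt1 UMIs and 89.7% and 88.9% of Kdr UMIs. The Flt1 and Kdr totals therefore move with the number of endothelial cells recovered. Of Nrp1 UMIs, endothelial-like cells held at most 26.6% in either library. The part of endothelial-like and other classes in the Nrp1 difference was not tested.

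In endothelial-like cells no eligible gene of 6 further lists was past the size rule. The median log2 ratio over every eligible gene there was -0.00098. Of 36 VEGF receptor signalling genes 27 were eligible, of which 10 were higher and 17 lower in haplodeficient (median -0.092). In it Nos3, the endothelial nitric oxide synthase, had 208 and 132 CPM (0.634, 0.564 to 0.712) and Hspb1, a small heat shock protein gene, 819 and 987 CPM (1.20, 1.14 to 1.27). Of 20 VEGF-responsive genes 10 were eligible, 3 higher and 7 lower (median -0.28). Plvap, which builds the diaphragms of fenestrated capillaries, had 473 and 778 CPM (1.65, 1.54 to 1.76), and Esm1, an endothelial secreted proteoglycan gene, 138 and 89.8 CPM (0.652, 0.566 to 0.753). Egr3, an immediate early factor gene, had 98.1 and 57.2 CPM (0.584, 0.490 to 0.695).

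Of 14 semaphorin and neuropilin partner genes 5 were eligible, 2 higher and 3 lower (median -0.048). Sema3g, an arterial class 3 semaphorin gene, had 223 and 154 CPM (0.692, 0.620 to 0.774). Of 12 VEGF inhibitor and binding protein genes 4 were eligible, 2 higher and 2 lower (median 0.086). Timp3, a metalloproteinase inhibitor that also blocks VEGF binding to KDR, had 3051 and 1966 CPM (0.644, 0.625 to 0.664). Of 21 other HIF targets 10 were eligible, 3 higher and 7 lower (median -0.18), with Higd1a, a mitochondrial protein gene, at 78.9 and 118 CPM (1.49, 1.26 to 1.76) and P4ha1, a collagen prolyl hydroxylase gene, at 110 and 74.3 CPM (0.677, 0.577 to 0.794). All 15 genes of the dissociation stress list were eligible in endothelial-like cells as a whole, 3 higher and 12 lower (median -0.13), and their summed level was 21902 and 20492 CPM, over subtypes that differed in opposite directions as given above. Capillary-like cells made up 11.9% of control and 24.0% of haplodeficient endothelial UMIs, and the part of this makeup and of the stress genes in the list values was not tested.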

How the data were processed

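Cells of 1 control and 1 haplodeficient kidney library were analysed. The values are raw UMI counts per gene and barcode, deposited by the authors without a cell filter and made with Cell Ranger 4, per the file headers. The genome build was mm10, per the submitters' processing notes, and the annotation release is not given in the sources used here. Coordinates come from GENCODE on GRCm38, to which 32158 of 32285 gene identifiers matched, and promoters from RefSeq on GRCm38.p6.

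Barcodes with at least 500 UMIs, 200 genes and at most 50% mitochondrial UMIs were kept, and Scrublet scores removed 715 and 804 likely doublets (7.56% and 8.02%, from 0.8% per 1000 cells). Both libraries (134190236 and 114668145 UMIs) were clustered together on 2000 variable genes without the 9 genes, with 30 components, 15 neighbours and Leiden resolution 1 (scanpy 1.11.5, leidenalg 0.10.2). Endothelial cells were clustered again with 20 components at resolution 0.5. Clusters were named "-like" from markers (at least 3 markers and 25% of a list, each in 10% of cells at 2-fold). The naming thresholds were set after clusters were seen. UMIs were summed per class and scaled to CPM. Intervals are 95% exact Poisson (levels), conditional binomial (ratios) and Clopper-Pearson (shares). Because the minimum of 50 CPM applies to the mean of both libraries, a gene just above it in one library and far lower in the other is not eligible, so the size rule can miss such genes; this was seen on simulated data. The named genes were the 9 genes, the 3 most alike by Pearson correlation, and list genes among the 3 highest and 3 lowest ratios; 1 gene most like Nrp1 is not reported here. The 9 genes and the lists were chosen with earlier results of these data known. Free RNA is the profile of barcodes of 1 to 100 UMIs.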

Additional observations from a re-analysis of the deposited data

Results flagged for a closer look

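These values drew a closer look because the ratio interval of one gene lay above 1 in some classes and below 1 in others. The difference between the classes was not tested. For Vegfa the log2 ratio of haplodeficient over control was 1.15 in neutrophil-like and 0.46 in proximal tubule-like cells, and -0.70 in distal convoluted tubule-like cells, -0.75 in principal or connecting tubule-like cells and -0.23 in unnamed cluster 14. For Nrp1 it was 0.22 for endothelial-like cells, 0.51 for pericyte or smooth muscle-like cells and 0.25 in unnamed cluster 14, and -0.63 in distal convoluted tubule-like and -0.42 in thick ascending limb-like cells. For Nrp2 it was 0.34 in endothelial-like and -0.68 in fibroblast-like cells.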

How the results depend on the processing

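No paired analysis was possible because the labels carry no replicate numbers and each group has 1 library. Each of 60 results was recomputed under those of 16 alternatives that applied to it, 595 comparisons in all, of which 509 kept direction and moved little, 72 moved and 14 reversed. Of the alternatives, 4 were chosen after seeing the data. Subtypes were not rebuilt where cells were clustered again. Where no cause is named, the cause was not tested.

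Thinning cells to 1000 UMIs weights cells equally and leaves out cells with fewer UMIs. It gave endothelial log2 ratios of -0.79 for Vegfc, -0.10 for Flt1, 0.28 for Kdr, -0.84 for Flt4 and 0.042 for Nrp1. It reversed Vegfa (0.13) and Nrp1 (-0.25) in unnamed cluster 14, Flt1 in arterial-like cells (0.046), and Vegfc (0.23) and Nrp2 (0.010) in unnamed subcluster 2. Without doublet removal Flt1 was -0.044, Kdr 0.59 and Nrp1 0.062. At Leiden resolution 2 Flt1 was -0.10. With each library clustered alone Flt1 was -0.036, Kdr 0.41 and Nrp1 0.41, and Vegfa in proximal tubule-like cells reversed to -0.24. Vegfb in thick ascending limb-like cells reversed with a 25% mitochondrial limit (-0.024), without doublet removal (-0.069), at resolution 2 (-0.0086), with each library alone (-0.045) and with the 9 genes among the variable genes (-0.049). Equal subcluster weights gave -0.51 for Vegfc and -0.29 for Flt1, and reversed Kdr (-0.089), Nrp1 (-0.22) and Nrp2 (-0.034). Without the podocyte-gene subcluster Kdr was 0.46 and Nrp1 0.12.

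The 32 endothelial genes past the size rule became 97 with eligibility at 10 CPM, 55 after thinning, 58 without doublet removal and 57 with each library alone. The 2 pairs of gene and class past it, counted over all classes compared, became 4, 0 and 1 in the first 3 of these. The number of eligible genes can change with each alternative and is not given here. These counts therefore cannot be read as shares. Vegfc in endothelial-like cells and Vegfa in neutrophil-like cells kept their direction under every alternative run for them.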

Other observations

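Both dendritic cell-like clusters were singled out after their values were seen. In the Xcr1- and Clec9a-led cluster (92 control and 121 haplodeficient cells) Vegfb was 6.28 CPM (6 UMIs) in control and 36.2 CPM (55 UMIs) in haplodeficient, a ratio of 5.77 (2.49 to 16.4), and Nrp2 was 15.7 and 48.1 CPM (3.06, 1.74 to 5.75). In the Ccl17- and Cd209a-led cluster (111 and 197 cells) Nrp2 was 110 and 69.0 CPM (0.627, 0.474 to 0.831) and Vegfa 79.1 and 38.6 CPM (0.489, 0.343 to 0.696). As one class, dendritic cell-like cells had 60.7 and 59.0 CPM of Nrp2, and its log2 ratio over 12 alternatives ranged from -0.69 to 3.53.

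In neutrophil-like cells, where Vegfa was higher in haplodeficient, Egln3 was at 199.9 CPM (138 to 281; 33 UMIs) in control and 69.3 CPM (55.1 to 86.1; 82 UMIs) in haplodeficient, with intervals that did not overlap. Of 21 other HIF targets 13 were eligible in these cells, 2 higher and 11 lower in haplodeficient. Their median log2 ratio was -0.29, against -0.080 over all eligible genes. The size rule was passed by 1 of them, and by 4.83% of all eligible genes. A link between the Egln3 and Vegfa values was not tested. Receptor RNA in barcodes of 1 to 100 UMIs also differed between libraries: Flt1 was at 14.8 and 44.4 CPM, and Kdr at 5.97 and 28.7 CPM.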
